A study of Mus musculus with 2 samples.

Results

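The lipid-associated and lysosomal macrophage genes were 10 genes, Trem2, Cd9, Gpnmb, Spp1, Cd63, Ctsd, Ctsb, Ctsl, Lgals3 and Lipa, of the 28692 genes counted in single cells of the stromal vascular fraction (SVF) of gonadal white adipose tissue (gWAT). They were taken as a named list, and all 10 had counts in both libraries. One library came from Adipo-Pgam1 KO mice, in which Adipoq-Cre deletes floxed Pgam1, and one from littermate controls, given as wildtype in the labels and as Pgam1 flox/flox without Cre in the study's methods. All mice were C57BL/6 males of 13 weeks. The Adiponectin promoter drives Cre in adipocytes and not in macrophages, and mature adipocytes are lost when the SVF is prepared. With 1 library per genotype, and the number of mice in each not given in the sources used here, no difference between genotypes could be tested, and every interval below is a 95% interval for counting error only. Levels are given as CPM, the unique molecular identifiers (UMIs) of a gene per 1000000 UMIs, both summed over the cells of one type in one library. Where a type's level differs between libraries, a change in RNA per cell and a change in which cells make up the type cannot be told apart.

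Macrophages of adipose tissue take up lipid that adipocytes release or leave behind when they die, and digest it in lysosomes. In obesity, a subset called lipid-associated macrophages gathers around dying adipocytes in crown-like structures and is known for high Trem2, Cd9, Gpnmb, Spp1 and Lipa. Trem2 is a surface receptor for lipids and lipoproteins that signals through the adaptor Tyrobp, Cd9 and Cd63 are tetraspanin membrane proteins, Gpnmb is a transmembrane glycoprotein of lysosomes and melanosomes, and Spp1 encodes the secreted glycoprotein osteopontin. Ctsd, Ctsb and Ctsl encode the lysosomal proteases cathepsins D, B and L, Lipa encodes lysosomal acid lipase, which cleaves cholesteryl esters and triglycerides, and Lgals3 encodes galectin-3, a sugar-binding protein that is drawn to damaged lysosomes.

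The 10 genes lie on 8 chromosomes of the mouse genome (GRCm38), and their identifiers in the files were those of the annotation. Trem2 spans chr17:48346401-48354147 on the plus strand and Gpnmb chr6:49036546-49070929 on the plus strand. Cd9 lies at chr6:125460266-125494791 and Lipa at chr19:34492318-34527474, both on the minus strand. Ctsb overlaps Fdft1 and Cd9 the antisense gene Gm28809, each on the opposite strand and each counted too, so reads could be split between them where counting did not use strand. Transcription of lysosomal genes is known to be driven by TFEB-family factors, which bind E-boxes with the core CACGTG, so the 250 bases before the start given by RefSeq were searched on both strands for CACGTG, for the longer TCACGTGA that contains it, and for the AP-1 motif TGACTCA. RefSeq promoter entries (GRCm38.p6) were matched for 9 of the 10 genes, all but Ctsb. In the GENCODE annotation, from which the gene positions come, the searched window of Ctsl lies wholly inside the gene and 211 of the 250 bases of that of Ctsd do. CACGTG was present for Ctsd (245 and 98 bases before the start) and Ctsl (236 bases before it), and in 6.05% of all 27025 promoters. TCACGTGA was present for Ctsd alone among the members and in 0.803% of promoters, and TGACTCA for none of the 9 and in 4.43%. For these 2 cathepsins, the 30 bases around each match are given 5′ to 3′ on the strand of the gene, with the matched motif in capitals, and for Trem2 and Gpnmb, on which the comparisons between cell types and libraries turn, the 250 bases before the start. They lie at chr7:142388048-142388077 and chr7:142387908-142387937 (Ctsd, minus strand), chr13:64370739-64370768 (Ctsl, minus strand), chr17:48346151-48346400 (Trem2, plus strand) and chr6:49036268-49036517 (Gpnmb, plus strand).
Ctsd, 245 bases before the start: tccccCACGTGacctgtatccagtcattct
Ctsd, 98 bases before the start: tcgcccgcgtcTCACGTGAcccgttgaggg
Ctsl, 236 bases before the start: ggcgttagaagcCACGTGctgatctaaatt
Trem2: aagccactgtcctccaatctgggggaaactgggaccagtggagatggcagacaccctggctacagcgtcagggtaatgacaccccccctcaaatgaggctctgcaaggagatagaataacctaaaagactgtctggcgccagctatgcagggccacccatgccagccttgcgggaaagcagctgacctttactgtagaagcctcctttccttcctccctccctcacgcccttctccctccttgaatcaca
Gpnmb: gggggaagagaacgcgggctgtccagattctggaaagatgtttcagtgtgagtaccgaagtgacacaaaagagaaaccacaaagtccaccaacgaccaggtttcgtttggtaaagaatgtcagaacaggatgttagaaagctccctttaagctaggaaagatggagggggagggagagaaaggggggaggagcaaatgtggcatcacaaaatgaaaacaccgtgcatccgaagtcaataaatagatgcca

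The control library held 8522 barcodes with 42859406 UMIs and the KO library 2730 barcodes with 13821581 UMIs. Barcodes were used if 500 or more genes were detected in them and mitochondrial transcripts gave no more than 10% of their UMIs. After removal of doublets 3616 control and 937 KO cells were left, none of which shared a barcode between libraries. Pgam1 stood at 99.3 CPM (96.3 to 102) over all control barcodes and at 91.5 CPM (86.5 to 96.6) over all KO barcodes. It stood at 108 CPM in fibroblast-like cells of either library. Pgam1 was higher in the KO in macrophage-like (142 and 207 CPM), monocyte-like (107 and 155 CPM) and dendritic cell-like cells (96.7 and 134 CPM), with intervals above 0. In mesothelial-like (0.06, -0.52 to 0.61) and endothelial-like cells (-0.29, -1.0 to 0.38) the intervals of the log2 ratio held 0. Mature adipocytes, in which Cre acts, are not among these cells. The paper reports markedly lower Pgam1 in a KO fibroblast cluster rich in adipocyte markers. It proposes that these cells are preadipocytes in which Cre acted. That cluster was not singled out here, and whether the Pgam1 levels bear on the labels was not tested. Cells were clustered without the 10 genes. There were 652 control and 95 KO macrophage-like cells (median 8183 and 10866 UMIs per cell), 115 and 28 monocyte-like cells (6275 and 12990.5 UMIs), 254 and 63 dendritic cell-like cells, and 899 and 231 fibroblast-like cells. All of the 11 macrophage markers were detected in macrophage-like cells of both libraries, and they summed to 10412 CPM (control) and 9511 CPM (KO). Macrophage-like cells fell into 2 groups, one with Folr2, Lyve1 and Cd163 (357 control and 34 KO cells) and one with Mmp12, Lyz1 and Retnla (295 and 61 cells). The Folr2 group made up 54.8% of macrophage-like cells in the control and 35.8% in the KO, so that different groups hold most of the class in the 2 libraries.

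In the control library, 6 of the 10 genes were higher in macrophage-like than in fibroblast-like cells by 2-fold or more, and the other 4 were lower by as much. The higher genes were Trem2, Spp1, Lgals3, Lipa, Ctsb and Ctsd, and the lower ones Ctsl, Cd63, Cd9 and Gpnmb. Over all genes with at least 50 UMIs, 14.9% were higher and 25.7% lower by that measure. In the KO library the same 6 genes were higher and 3 of the 4 were lower, against 14.3% and 26.6% of all genes. Spp1 had fewer than 50 UMIs in the KO comparison (24 and 0), so it falls outside the count over all genes there. Against fibroblast-like cells, 6 members thus had more RNA in macrophage-like cells, whereas the tetraspanins, Gpnmb and Ctsl had more in fibroblast-like cells. The 6 were not all highest in macrophage-like cells over the named types. In the control, Trem2 was highest in mesothelial-like and Spp1 in lymphatic endothelial-like cells.

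Trem2 separated the types most. It stood at 108 CPM in control and 126 CPM in KO macrophage-like cells, against 0.808 CPM (8 UMIs) in control fibroblast-like cells and 0 UMIs in KO ones. The log2 ratio of macrophage-like to fibroblast-like cells was 7.06 in the control and at least 7.04 in the KO, where the lower bound sets the fibroblast-like cells at a floor of 3 UMIs. Trem2 was not confined to myeloid cells, however. Mesothelial-like cells of the control held 137 CPM (118 to 158; 190 UMIs) and 47.6% of them had a Trem2 UMI, above macrophage-like cells by 0.34 on the log2 scale (0.10 to 0.58). KO mesothelial-like cells, of which there were 19, held 62.5 CPM from 17 UMIs. The complement gene C1qa stood at 13.0 CPM and Tyrobp at 15.1 CPM in control mesothelial-like cells, against 2039 and 1593 CPM in macrophage-like cells. Among lymphoid cells (those named T, B or NK cell-like), which are not known to express Trem2, 0.530% of control cells (median 4185 UMIs) had a Trem2 UMI, against 33.3% of control macrophage-like cells (median 8183 UMIs). When every cell was thinned to 2000 UMIs, 0.185% and 15.7% had one.

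Spp1 was low in all types. It stood at 19.9 CPM (125 UMIs) in control and 21.6 CPM (24 UMIs) in KO macrophage-like cells, 9.80 and 6.93 CPM in dendritic cell-like cells and 0.404 CPM or less in fibroblast-like cells. The log2 ratio of macrophage-like to fibroblast-like cells was 5.62 in the control and at least 4.49 in the KO. Its highest level in the control was in lymphatic endothelial-like cells, 49.0 CPM, from 17 UMIs of which 1 cell held 13. Its highest level in the KO was in NK cell-like cells, 70.5 CPM, from 23 UMIs in 3 cells.

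Among Lgals3, Ctsb, Lipa and Ctsd, Lgals3 followed the myeloid order most closely in the control. There it stood at 973 CPM in macrophage-like, 736 in monocyte-like, 562 in dendritic cell-like, 366 in mesothelial-like and 52.9 CPM in fibroblast-like cells. The intervals of the differences between these neighbours down to mesothelial-like cells excluded 0. In the KO, Lgals3 was higher in monocyte-like (1517 CPM) than in macrophage-like cells (1102 CPM). Ctsb stood at 2138 CPM in macrophage-like, 1401 in monocyte-like and 551 CPM in fibroblast-like cells of the control. Lipa stood at 291, 151 and 59.3 CPM in the same 3 types. Both genes thus had the same order over these types in the control, macrophage-like first. Ctsd stood at 785 CPM in control macrophage-like cells, but the next type was NK cell-like cells with 723 CPM, lower by only 0.12 on the log2 scale (0.01 to 0.23). Monocyte-like cells, at 113 CPM, were below fibroblast-like cells, at 248 CPM.

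Ctsl, Cd63, Gpnmb and Cd9 showed the opposite order. Ctsl stood at 182 CPM in control macrophage-like and 1045 CPM in control fibroblast-like cells, a log2 ratio of -2.52, and at 149 and 1194 CPM in the KO, a ratio of -3.0. Mesothelial-like cells, at 1035 CPM in the control, did not differ from fibroblast-like cells beyond counting error (0.01, -0.07 to 0.09). Cd63 stood at 333 CPM in control macrophage-like and 901 CPM in control fibroblast-like cells, and at 290 and 964 CPM in the KO (log2 ratios of -1.44 and -1.74). Gpnmb stood at 34.1 CPM in control macrophage-like and 74.0 CPM in control fibroblast-like cells, and at 64.0 and 148 CPM in the KO (-1.12 and -1.21). For these 3 genes fibroblast-like cells were the highest of the 13 named types in the control. Cd9 stood at 83.5 CPM in control macrophage-like cells, below fibroblast-like cells at 201 CPM and close to lymphoid cells at 86.1 CPM. The highest Cd9 levels in the control were in 7 neutrophil-like cells (1847 CPM) and in lymphatic endothelial-like cells (1283 CPM).

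Fewer members stood out in monocyte-like and dendritic cell-like cells. In monocyte-like cells 5 members were at least 2-fold higher than in fibroblast-like cells in the control and 3 in the KO, against 14.4% and 14.8% of all genes with at least 50 UMIs. These were Trem2, Lgals3 and Ctsb in both libraries, and Lipa and Spp1 in the control, the latter on 1 UMI with an interval that held 0. Trem2 and Spp1 had fewer than 50 UMIs in this comparison, and without them 3 members were higher in the control and 2 in the KO. In dendritic cell-like cells 2 members were, Lgals3 and Spp1, in each library, against 13.9% and 14.2% of all genes, and of these only Lgals3 had 50 UMIs. The log2 ratio of dendritic cell-like to fibroblast-like cells was 3.41 and 3.88 for Lgals3 in the control and KO, and 4.6 and 2.85 for Spp1, the last as a lower bound. Trem2 had 4 UMIs in 254 control and 0 in 63 KO dendritic cell-like cells, and Gpnmb 0 and 1.

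**Figure D1:**
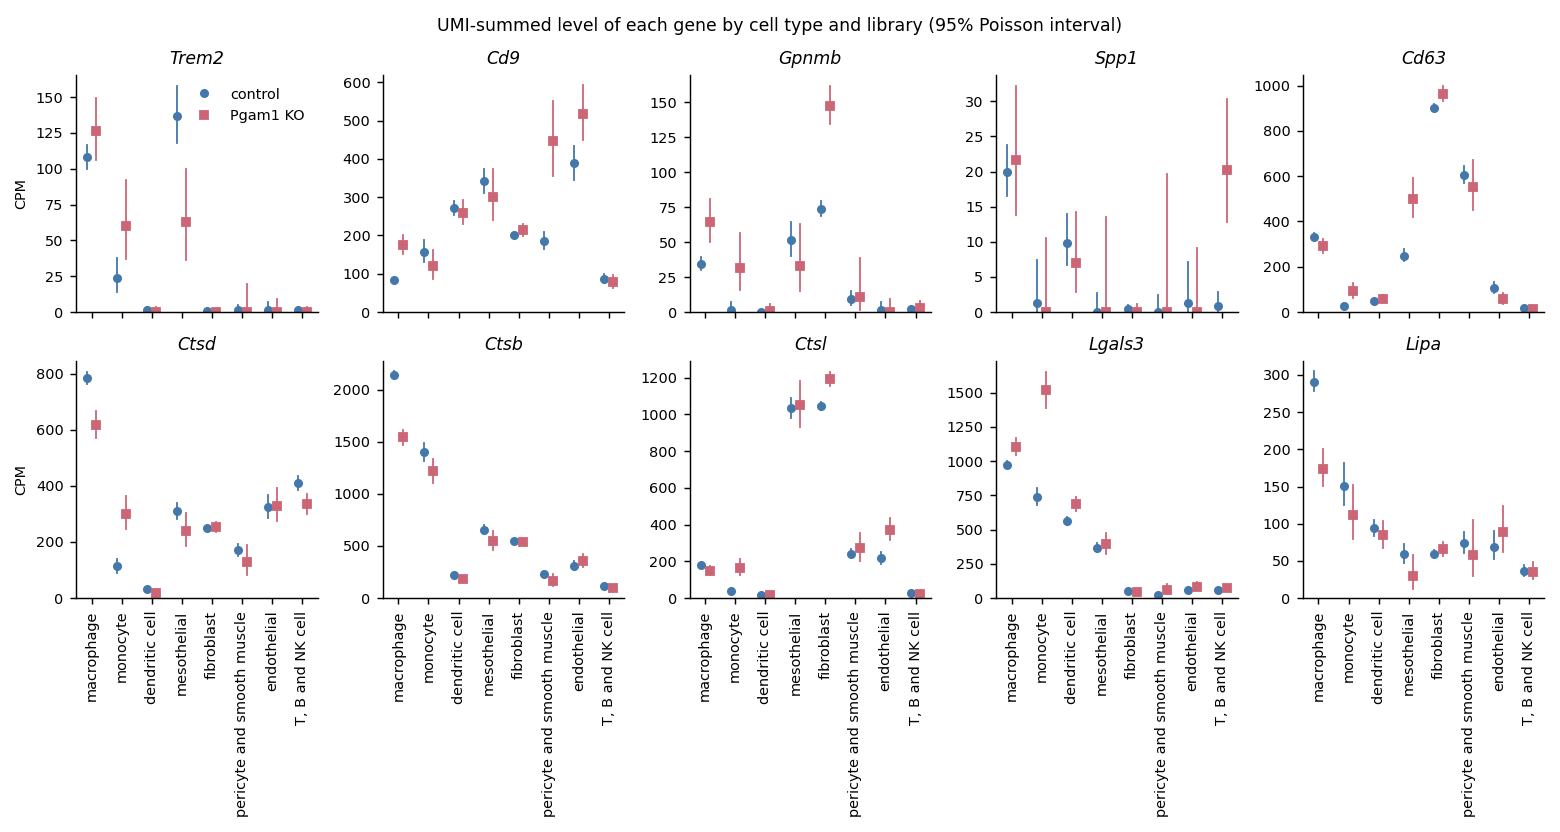
CPM of each of the 10 genes (y axes, each with its own scale) in 8 groups of cells (x axes), with circles for the control and squares for the Pgam1 KO library and lines for the 95% Poisson interval. Lgals3, Lipa, Ctsb and Ctsd are highest in macrophage-like cells of the control (973, 291, 2138 and 785 CPM), Cd63, Ctsl and Gpnmb in fibroblast-like cells (901, 1045 and 74.0 CPM), and Trem2 stands at 137 CPM in mesothelial-like and 108 CPM in macrophage-like cells of the control.

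The macrophage-like level of Gpnmb came from very few cells. Of 652 control cells 22 had a Gpnmb UMI, and of 95 KO cells 3 did, 3.37% and 3.16%. At least 5 Gpnmb UMIs were counted in 10 control and 2 KO cells. One KO cell, of 5605 UMIs in all, held 64 of the 71 Gpnmb UMIs (90.1%), and the 3 highest control cells held 51, 50 and 22 of 214. The KO cell also held 100 of the 108 UMIs of Ctsk, a cysteine protease best known from osteoclasts, with 13 Trem2, 12 Cd9 and 8 Spp1 UMIs and no C1qa UMI. The second of the control cells held 49 Ctsk, 44 Trem2, 16 Cd9 and 77 Ctsl UMIs, whereas the first held 0 Ctsk, 5 Trem2 and 3 Cd9 UMIs beside 42 of Ctsl. The cells with most Gpnmb were therefore not alike in the other genes. In fibroblast-like cells Gpnmb was spread out, with a UMI in 40.8% (control) and 56.3% (KO) of them and no cell above 16 UMIs. Trem2 was spread more evenly over macrophage-like cells, with a UMI in 217 of 652 control and 44 of 95 KO cells. Spp1 was again concentrated, with UMIs in 23 control and 7 KO cells, 53 of 125 control UMIs in 1 cell and 9 of 24 KO UMIs in 1 cell.

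**Figure D2:**
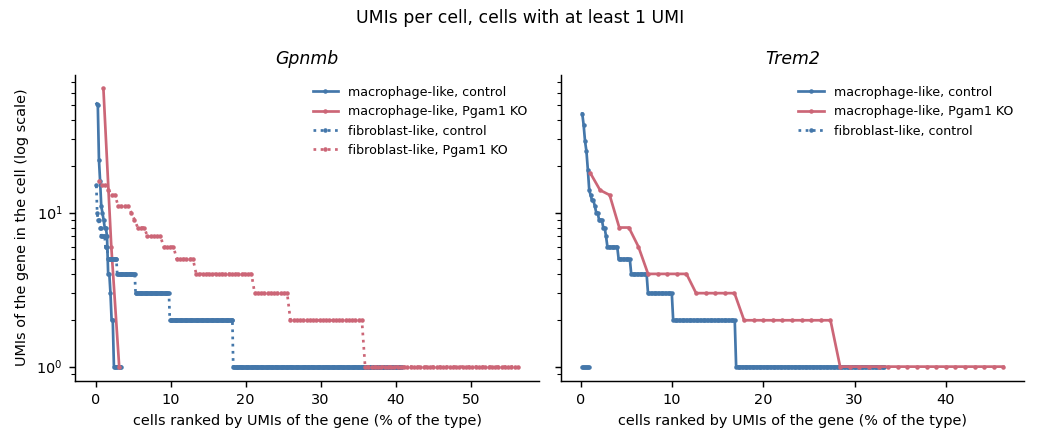
UMIs of Gpnmb (left) and Trem2 (right) in each cell with at least 1 UMI (y axis, log scale), with cells ranked from high to low as a percentage of their type (x axis); solid lines are macrophage-like and dotted lines fibroblast-like cells, blue control and red KO. Gpnmb reached 51 UMIs in a control and 64 in a KO macrophage-like cell but was found in 3.37% and 3.16% of them, against 40.8% and 56.3% of fibroblast-like cells, in which no cell passed 16 UMIs.

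Trem2 and Cd9 together are the usual surface definition of lipid-associated macrophages. Both genes had a UMI in 53 of 652 control (8.13%) and 16 of 95 KO macrophage-like cells (16.8%). Thinned to 2000 UMIs, 3.31% of 604 control cells (2.03 to 5.07) had both, and 3.8% of 79 KO cells did (0.790 to 10.7). Of the lymphoid cells of the control 1 of 566 had both, and 0 of 541 after thinning, which allows up to 0.555%. In control mesothelial-like cells, 44.8% had both UMIs, and 7.45% after thinning. Among the thinned control macrophage-like cells, Gpnmb was found in 25.0% of the 20 cells with both genes and 1.20% of the 584 others. Spp1 was found in 15% and 1.20%, and Cd63 in 90% and 40.1%. Lipa was found in 65.0% and 33.9%, and Ctsl in 50.0% and 23.3%. The other members were also found in a larger share of the 20 cells, at 80.0% and 61.8% for Ctsd, 75.0% and 51.4% for Lgals3, and 100% and 86.8% for Ctsb. With 20 cells the counting error of each share is large, and the smaller of these differences may lie within it. All of these shares are of cells of 1 library, and cells of 1 library are not replicates.

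The members split between the 2 groups of macrophage-like cells. In the control, Cd63, Ctsb and Ctsl were higher in the Folr2 group, and Cd9, Lgals3, Gpnmb and Spp1 in the Mmp12 group. Ctsb stood at 3471 CPM in the Folr2 and 1283 CPM in the Mmp12 group, Cd63 at 532 and 206 CPM, and Ctsl at 249.5 and 139 CPM, log2 ratios of 1.44, 1.37 and 0.85. Lgals3 stood at 215 CPM in the Folr2 and 1460 CPM in the Mmp12 group, Cd9 at 28.5 and 119 CPM, Gpnmb at 3.26 and 53.9 CPM, and Spp1 at 1.63 and 31.7 CPM. The log2 ratios were -2.76, -2.06, -4.05 and -4.28, and all 8 Gpnmb UMIs of the Folr2 group were in 1 cell. Lipa (289 and 292 CPM) and Trem2 (112 and 106 CPM) did not differ between the control groups beyond counting error. Ctsd stood at 648 and 873 CPM, a log2 ratio of -0.43. The cells were clustered on genes other than these 10, but genes that vary with the 10 took part in it, and the split is given as a description. Over 279 control cells of the Mmp12 group thinned to 2000 UMIs, the pairs of members with the highest Pearson correlations were Gpnmb and Ctsl (0.69), Ctsd and Ctsb (0.60), and Ctsb and Ctsl (0.58). Gpnmb and Ctsb stood at 0.53 and Trem2 and Gpnmb at 0.43. These are over cells of 1 library, and Gpnmb was detected in 21 of the 295 cells of the group and in 11 of the 279 thinned ones. A few cells can thus weigh heavily in the correlations with Gpnmb.

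**Figure D3:**
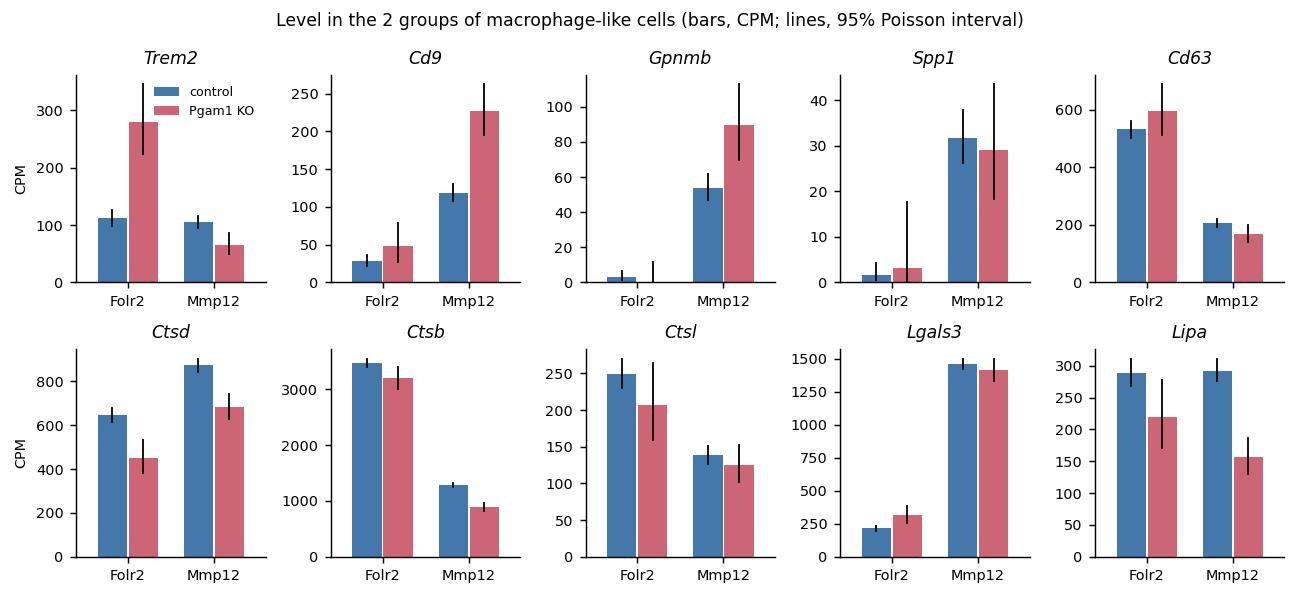
CPM of each gene (bars, y axes from 0) in the Folr2 and the Mmp12 group of macrophage-like cells, blue for the control and red for the KO library, with lines for the 95% Poisson interval. Ctsb and Cd63 are higher in the Folr2 group (3471 and 532 CPM in the control), Lgals3, Cd9, Gpnmb and Spp1 in the Mmp12 group (1460, 119, 53.9 and 31.7 CPM), and Trem2 stands at 112 CPM (control) and 280.4 CPM (KO) in the Folr2 group and at 106 and 65.4 CPM in the Mmp12 group.

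To ask how adipocyte Pgam1 deletion went with these genes, each type was compared between the libraries. In macrophage-like cells Lipa and the 3 cathepsins were lower in the KO library, and Cd9 was higher. Cd9 alone differed by 2-fold, from 83.5 CPM in the control to 176 CPM in the KO, a log2 ratio of 1.07 (0.83 to 1.31). Thus 1 of 10 members was at least 2-fold higher and 0 were lower, against 1.62% and 4.99% of all genes. The median log2 ratio of the members was -0.04 and that of all genes -0.10. The interval lay above 0 for 3 members (Cd9, Lgals3 and Gpnmb, the last resting on 1 KO cell) and below 0 for 5 (Lipa, Ctsb, Ctsd, Ctsl and Cd63).

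Of the enzymes, Lipa stood at 291 CPM (278 to 305) in the control and 174 CPM (150 to 200) in the KO, a log2 ratio of -0.74 (-0.96 to -0.53). Ctsb stood at 2138 and 1542 CPM, a ratio of -0.47 (-0.54 to -0.40), and Ctsd at 785 and 618 CPM, a ratio of -0.35 (-0.46 to -0.23). Ctsl stood at 182 and 149 CPM, -0.29 (-0.54 to -0.05). All 4 enzymes were thus lower, by less than 2-fold. Lipa and Ctsb kept this direction in 15 of 15 settings tried, Ctsd in 14 of 15 (up to 0.08) and Ctsl in 13 of 15 (up to 0.52).

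Of the surface and secreted proteins, Trem2 stood at 108 and 126 CPM (0.22, -0.05 to 0.49) and Spp1 at 19.9 and 21.6 CPM (0.12, -0.58 to 0.76), with intervals that held 0. Tyrobp, through which Trem2 signals, stood at 1593 and 1726 CPM (0.12). Lgals3 stood at 973 and 1102 CPM (0.18, 0.09 to 0.27) and Cd63 at 333 and 290 CPM (-0.20). Gpnmb stood at 34.1 and 64.0 CPM (0.91, 0.50 to 1.30), but without the 1 cell with most Gpnmb UMIs in each library the log2 ratio was -2.04, so its direction rested on 1 KO cell. Cd9 was less concentrated. Cd9 was detected in 18.4% of the control cells and 37.9% of the KO cells, and after thinning in 7.12% of 604 and 20.3% of 79 cells, while the thinned shares of lymphoid cells were 15.3% and 17.4%. The thinned control share of macrophage-like cells thus lay below that of lymphoid cells. The 10 cells with most Cd9 UMIs held 43.3% of the control and 71.3% of the KO sum.

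Several other measures moved with these differences. The summed level of the 12 immediate early genes, which respond to tissue dissociation, was 6887 CPM in control and 8712 CPM in KO macrophage-like cells, and that of the 8 heat shock genes 706 and 1122 CPM. The 5 erythroid genes, a sign of free RNA from red cells, summed to 5799 and 1800 CPM, and the 8 fibroblast markers to 363 and 177 CPM. All genes of these lists were detected in both libraries, and their part in the differences of the members was not tested.

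Within the groups, the CPM of Trem2 was higher in the KO in the Folr2 group and lower in the Mmp12 group. In the Folr2 group it stood at 112 CPM (274 UMIs in 357 cells) in the control and 280.4 CPM (88 UMIs in 34 cells) in the KO, a log2 ratio of 1.33 (0.96 to 1.68). Trem2 was detected in 36.4% of the control cells of this group and 76.5% of its KO cells, and after thinning in 17.2% of 325 and 28.6% of 28 cells. In the Mmp12 group Trem2 stood at 106 CPM in the control and 65.4 CPM in the KO, -0.69 (-1.14 to -0.27), and 29.5% of cells had a UMI in either library. After thinning the Mmp12 group, one was left in 12.2% of its 279 control cells and 17.6% of its 51 KO cells, so that the shares did not follow the CPM there. Immediate early genes summed to 6813 CPM in the control and 11289 CPM in the KO in the Folr2 group, and to 6935 and 7694 CPM in the Mmp12 group, and erythroid genes to 10372 and 1230 CPM and to 2862 and 2026 CPM. Whether these bear on the Trem2 levels was not tested. In the Folr2 group 1 member (Trem2) was at least 2-fold higher and 0 were lower, against 1.91% and 8.5% of all genes, and in the Mmp12 group 0 were higher and 0 lower, against 1.66% and 3.51%.

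Lipa was lower in the KO in both groups, from 289 to 220 CPM in the Folr2 group (-0.40, -0.77 to -0.04) and from 292 to 156 CPM in the Mmp12 group (-0.91, -1.19 to -0.64). Ctsd was lower in both as well, from 648 to 452 CPM (-0.52) and from 873 to 683 CPM (-0.35). For Ctsl the interval held 0 in each group. It stood at 249.5 and 207 CPM in the Folr2 group (-0.27, -0.66 to 0.10). In the Mmp12 group it stood at 139 and 126 CPM (-0.14, -0.46 to 0.17). Ctsb stood at 3471 and 3196 CPM in the Folr2 group (-0.12, -0.21 to -0.02, beside a median of -0.13 over all genes in that group) and at 1283 and 890 CPM in the Mmp12 group (-0.53, -0.64 to -0.41). Cd9 stood at 28.5 and 47.8 CPM in the Folr2 group (0.74, -0.17 to 1.56) and at 119 and 226 CPM in the Mmp12 group (0.93, 0.67 to 1.18), under 2-fold in each. Lgals3 stood at 215 and 319 CPM in the Folr2 group (0.57) and at 1460 and 1412 CPM in the Mmp12 group (-0.05, -0.14 to 0.04). Cd63 stood at 532 and 596 CPM (0.16) and at 206 and 169 CPM (-0.29, -0.56 to -0.02).

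Trem2, Cd63, Ctsd, Ctsl, Lgals3 and Gpnmb were at least 2-fold higher in the 28 KO than in the 115 control monocyte-like cells, 6 members in all, and 0 were lower, against 3.39% and 5.55% of all genes. Only 7 members had the 50 UMIs over both libraries that the count over all genes required, and 4 of these 7 were higher. Lgals3 stood at 736 CPM (556 UMIs) in the control and 1517 CPM (530 UMIs) in the KO, a log2 ratio of 1.04 (0.87 to 1.22). Ctsd stood at 113 and 300.5 CPM (1.42, 0.99 to 1.85), and Ctsl at 38.4 CPM (29 UMIs) and 166 CPM (58 UMIs, 20 of them in 1 cell; 2.11, 1.45 to 2.81). These 3 had the most UMIs among the higher members.

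Trem2 stood at 23.8 CPM in the control and 60.1 CPM in the KO, on 18 and 21 UMIs (1.33, 0.36 to 2.33). Cd63 stood at 25.2 and 91.6 CPM, with 18 of 32 KO UMIs in 1 cell (1.86, 1.0 to 2.76). Gpnmb had 1 and 11 UMIs, 10 of the 11 in 1 cell, a log2 ratio of 4.57 (1.79 to 10.00) that rests on that cell. Not all members were higher, since Ctsb stood at 1401 and 1216 CPM (-0.20, -0.37 to -0.04), Cd9 at 158 and 120.2 CPM (-0.39, -0.93 to 0.13) and Lipa at 151 and 112 CPM (-0.44, -1.0 to 0.10). Spp1 had 1 and 0 UMIs and no ratio.

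The monocyte-like cells of the 2 libraries differed in make-up and depth. Control cells had a median of 6275 UMIs and KO cells of 12990.5. The 7 markers of classical monocytes summed to 4527 CPM in the control and 6833 CPM in the KO, and the 8 of nonclassical monocytes to 4230 and 2066 CPM. The 5 erythroid genes summed to 11452 CPM in the control and 650 CPM in the KO, and the 8 fibroblast markers to 584 and 177 CPM. The part of these in the differences of the members was not tested. The macrophage genes C1qa and C1qb were higher in the KO, by 2.47 and 2.72 on the log2 scale. In monocyte-like cells without any C1q UMI the ratios were 1.39 for Trem2, 2.92 for Cd63, 1.40 for Ctsd, 1.90 for Ctsl and 1.19 for Lgals3, and -0.18 for Cd9, -0.28 for Ctsb and -0.48 for Lipa. With looser limits on barcodes, 200 or more genes and up to 20% of UMIs mitochondrial, 0 members were at least 2-fold higher and Trem2, Cd63 and Lgals3 turned to -0.74, -0.67 and -0.020. The monocyte-like class then held 277 control and 77 KO cells and the macrophage-like class 517 and 38, so different cells were compared. In the control, Ctsd in that monocyte-like class was above fibroblast-like cells (1.43), not below them (-1.14). Without the 1 cell with most UMIs of each member in each library, 3 members were at least 2-fold higher.

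In dendritic cell-like cells no member differed by 2-fold between the libraries, with 0 higher and 0 lower against 0.986% and 3.13% of all genes. Lgals3 was higher, at 562 CPM in the control and 684 CPM in the KO (0.28, 0.15 to 0.41). Ctsd was lower, at 33.5 CPM (106 UMIs) and 18.8 CPM (19 UMIs; -0.83, -1.62 to -0.12), and Ctsb too, at 223 and 186 CPM (-0.26, -0.50 to -0.03). Cd9, which was higher in dendritic cell-like than in macrophage-like cells, stood at 272 and 259 CPM (-0.07, -0.27 to 0.13). In the cluster led by Xcr1, the marker of type 1 dendritic cells, Ctsd had 19 UMIs in 72 control and 2 UMIs in 27 KO cells, and Lipa stood at 115 and 69.6 CPM (-0.73, -1.33 to -0.16). C1qa, a macrophage gene, had 121 UMIs in control and 1 UMI in KO dendritic cell-like cells, and its part in the Ctsd level was not tested.

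Gpnmb was the member that differed most between the libraries in fibroblast-like cells. It stood at 74.0 CPM (68.8 to 79.6) in the control and 148 CPM (134 to 162) in the KO, a log2 ratio of 1.0 (0.82 to 1.17) that lay just under 2-fold, so that 0 members were counted as higher and 0 as lower, against 1.16% and 1.81% of all genes. Gpnmb was detected in 40.8% of the control cells and 56.3% of the KO cells, and after thinning in 12.1% of 808 and 18.4% of 206 cells. The cell with most Gpnmb held 15 of 733 control and 16 of 461 KO UMIs, so that no single cell carried the difference. The ratio was above 0 in 17 of 17 settings, from 0.32 to 1.26. The difference was larger in the cluster led by Inmt, from 75.9 to 182 CPM (1.26, 1.06 to 1.47), than in the cluster led by Cilp, from 70.1 to 87.9 CPM (0.33, -0.03 to 0.68). These 2 intervals did not overlap, and the difference between the clusters was not tested over libraries.

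The other members differed little in fibroblast-like cells. Ctsl stood at 1045 and 1194 CPM (0.19, 0.14 to 0.25), Cd63 at 901 and 964 CPM (0.10, 0.04 to 0.16) and Cd9 at 201 and 213 CPM (0.08). Ctsd, Ctsb, Lgals3 and Lipa had intervals that held 0, with ratios of 0.03, -0.03, -0.19 and 0.14. Tyrobp and C1qa, which myeloid cells express, were lower in KO fibroblast-like cells by 1.46 and 1.5 on the log2 scale, at 10.6 and 3.84 CPM and 8.18 and 2.88 CPM, and immediate early genes summed to 4430 and 6884 CPM. The macrophage markers, which summed to 10412 CPM beside 34.1 CPM of Gpnmb in control macrophage-like cells, summed to 81.5 and 40.4 CPM in control and KO fibroblast-like cells beside 74.0 and 148 CPM of Gpnmb. In mesothelial-like cells (105 and 19) Trem2 stood at 137 and 62.5 CPM (-1.13, -1.94 to -0.41) and Cd63 at 249 and 500.0 CPM (1.01, 0.71 to 1.30). Lipa stood at 59.1 CPM (82 UMIs) and 29.4 CPM (8 UMIs), with an interval that held 0 (-1.01, -2.27 to 0.04). No other member differed by 2-fold there. Of the 5223 genes with at least 50 UMIs in that comparison, 69 were at least 2-fold higher and 256 lower.

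**Figure D4:**
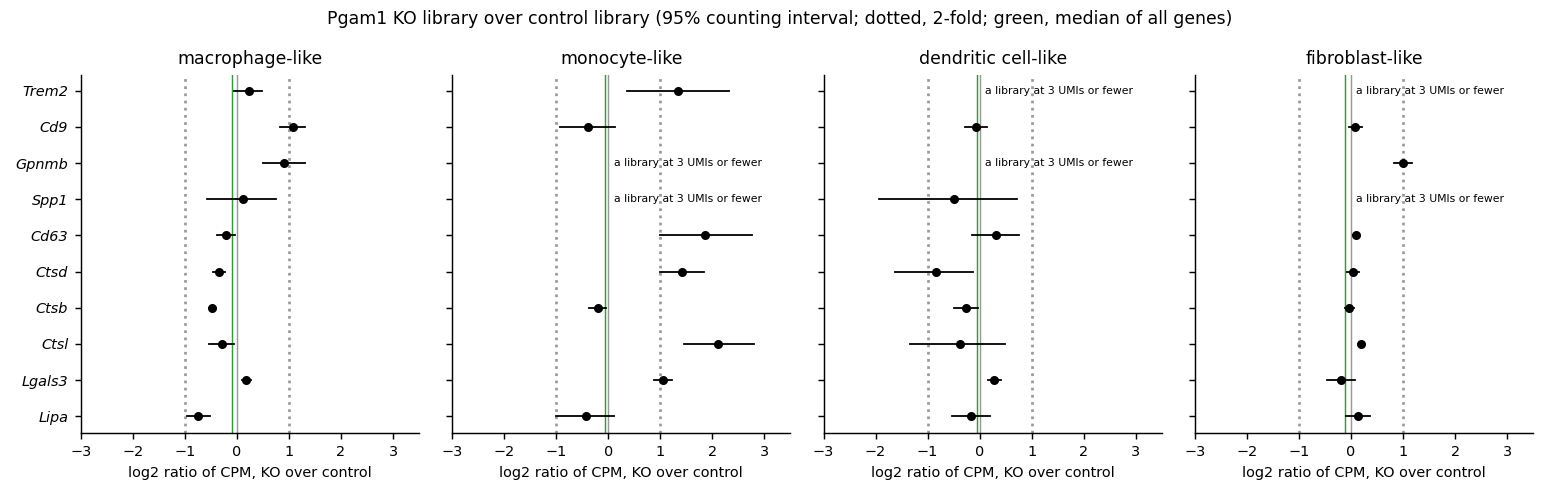
Log2 ratio of CPM, KO over control (x axes), for each gene (rows) in 4 types of cells, with lines for the 95% counting interval, dotted lines at 2-fold and a green line at the median of all genes; a gene with a library at 3 UMIs or fewer is marked in words. In macrophage-like cells Cd9 lies at 1.07 and Lipa at -0.74, in monocyte-like cells Ctsl at 2.11 and Ctsd at 1.42, and in fibroblast-like cells Gpnmb, at 1.0, lies farthest from 0.

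Of 24 measured other genes of lipid-associated macrophages, 0 were at least 2-fold higher and 1 was lower in KO macrophage-like cells (median log2 ratio 0.12), against the 1.62% and 4.99% of all genes that also stand beside the lists that follow. The lower one was Mmp12, a macrophage elastase, at 377 CPM in the control and 176 CPM in the KO (-1.10), and the largest differences upwards were Msr1, a scavenger receptor, from 77.7 to 133 CPM (0.77), and Fabp5, a fatty acid-binding protein, from 123 to 207 CPM (0.75). Of 42 lysosomal hydrolases 1 was at least 2-fold higher and 2 were lower (median -0.35, against -0.10 for all genes). The higher one was Ctsk, from 11.6 to 97.4 CPM (3.07), with 100 of its 108 KO UMIs in the 1 cell described above, and the lower ones were Idua and Sgsh, which degrade glycosaminoglycans (-1.43 and -1.02, on 7 and 12 KO UMIs). Of 29 lysosomal membrane and proton pump genes 0 differed by 2-fold (median -0.15), with Slc17a5, the sialic acid exporter, at -0.90 and Cd68 at 0.18. The cathepsin inhibitors Cst3 and Cstb stood at 0.07 and 0.16.

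The 8 genes of Trem2 signalling, among them Tyrobp and Syk, showed no 2-fold difference in macrophage-like cells (median -0.15), with Adam17, a protease that sheds Trem2, at -0.58 and Plcg2 at 0.41. Of 14 transcription factors and other regulators 1 was lower, Bhlhe41 (-1.28, -3.21 to 0.16), on 55 control and 4 KO UMIs with an interval that held 0, while its paralog Bhlhe40 stood at 0.74 and Tfec at 0.50. Of the 6 measured receptors of osteopontin 0 differed by 2-fold, with Cd44 at 0.63 and Itga9 at -0.27. Among 11 other galectins and tetraspanins 1 was lower, Cd82 (-1.10, on 10 KO UMIs), and Cd53 stood at 0.08. Against fibroblast-like cells in the control, 7 of the 8 Trem2 signalling genes were at least 2-fold higher in macrophage-like cells, as were 15 of 24 lipid-associated genes and 15 of 42 hydrolases, beside the 14.9% of all genes.

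The genes whose levels over the 13 named types of the control were most like each member's were taken by Pearson correlation of log2(CPM + 1), with the value in the KO library beside it. Trem2 was most like Tlr5, a receptor for flagellin (0.949 in the control, 0.919 in the KO), Abcc3 (0.887, 0.954) and Csf1r, a growth factor receptor of macrophages (0.822, 0.708). Ctsb was most like Lamp1, a lysosomal membrane protein (0.893, 0.903), Ctsl like Extl2 (0.981, 0.788) and Gaa, lysosomal alpha-glucosidase (0.965, 0.884), Lipa like Ctsa, cathepsin A (0.900, 0.710), and Lgals3 like Man2b1, a lysosomal mannosidase (0.919, 0.830). The likeness of Ctsl and Extl2 was the highest of any member in the control. For the rest the closest genes were Reps2 for Gpnmb (0.930, 0.875), Sash1 for Cd63 (0.941, 0.828), March8 for Ctsd (0.832, 0.756) and Lyve1 for Spp1, whose likeness was not kept in the KO (0.850, 0.214). For Cd9 they were Dock4 (0.888, 0.434) and Nup98 (0.885, 0.209), followed by Tpm4 (0.859, 0.823). These correlations are over 13 types of 1 library, which share its depth and its free RNA. A single type can weigh heavily in them. Cd9, Dock4 and Nup98 were each highest in neutrophil-like cells, of which the control had 7. Spp1 and Lyve1 were each highest in lymphatic endothelial-like cells.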

How the data were processed

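Single-cell RNA-seq was analysed from 1 control and 1 Adipo-Pgam1 KO library, prepared from the SVF of gWAT with the 10x Genomics v3 3′ kit. The deposited values are whole-number UMI counts per gene and barcode, not normalized, which the authors made by alignment and counting. The submitters' processing notes name Cell Ranger 3.0.1, Seurat 3.1.5, R 4.0.1 and the mm10 build, and the counting of reads by strand is not given in the sources used here. Samples were grouped by the genotype in the labels, and both deposited matrices were used.

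Barcodes with fewer than 500 detected genes or over 10% mitochondrial UMIs were left out (4641 control and 1772 KO barcodes). Scrublet scores were computed per library, and the cells with the highest scores, 0.8% per 1000 barcodes, were removed as doublets, 265 (6.83%) and 21 (2.19%) cells. Counts were scaled to 10000 per cell and log-transformed, and 2000 variable genes, 30 principal components, 20 neighbours and Leiden clustering at resolution 0.5 gave 25 clusters (Python 3.11.15, scanpy 1.11.5, leidenalg 0.10.2). The 10 genes and the other listed genes, 117 in all, were not among the clustering genes. Clusters were named from marker lists by their mean scaled expression, over 0.5 and ahead of the next type by 0.75, with a check of their leading genes. This naming rule was set after seeing the data. It left 414 control and 150 KO cells unnamed.

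UMIs were summed by type and library. Levels have exact Poisson intervals, ratios exact conditional binomial intervals and shares exact Clopper-Pearson intervals, all at 95%, and all cover counting error only. No p-value was computed, since there was 1 library per genotype. For counts and medians of ratios, a library at 3 UMIs or fewer was set at a floor of 3 UMIs. Ratios against 0 UMIs are bounds at this floor, and those against 1 to 3 UMIs are given with their counting interval. A 2-fold ratio was the threshold of the counts, and all genes with at least 50 UMIs over both sums served as background. Shares of cells were also computed after thinning each cell to 2000 UMIs, leaving out shallower cells. The functions were tested on simulated data. The text names the 10 members, for each the genes most like it over the 13 named types, and of each list at most 4 genes, those with the largest and smallest ratios among them. The members and the gene lists were chosen with earlier results of these data known. Alternatives included edgeR 4.0.16 TMM factors, median-of-ratios factors, other limits on barcodes, other resolutions, and leaving out the cells with most UMIs. Of the gene lists, Clec7a was not found and Cd37 names 2 genes in the files.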

Additional observations from a re-analysis of the deposited data

Results flagged for a closer look

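For Trem2 and Ctsd, ratios of KO to control lay on opposite sides of 0 in 2 groups of myeloid cells, with both intervals clear of 0 and both ratios past 1.5-fold. Ctsl (2.11 in monocyte-like and -0.29 in macrophage-like cells) and Cd63 (1.86 in monocyte-like cells and -0.29 in the Mmp12 group) also had intervals on opposite sides, with the lower ratio under 1.5-fold. Trem2 had a log2 ratio of 1.334 in monocyte-like cells and 1.328 in the Folr2 group of macrophage-like cells, against -0.693 in the Mmp12 group. Ctsd had a log2 ratio of 1.417 in monocyte-like cells and -0.8329 in dendritic cell-like cells. The differences between these groups were not tested, since each genotype is 1 library. The Trem2 ratio of monocyte-like cells rests on 39 UMIs and turned to -0.74 with looser limits on barcodes, under which that class held 277 control and 77 KO cells. With those limits the Ctsd ratio of monocyte-like cells was 0.22. The Ctsd ratio of dendritic cell-like cells rests on 19 KO UMIs. It kept its sign in 15 of 16 settings and ran from -2.82 to 2.62, the last with each library clustered alone.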

How the results depend on the processing

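No paired analysis was possible because each genotype is 1 library, and for the same reason no library could be left out. The direction of KO over control in macrophage-like cells was kept by Lipa (-1.08 to -0.39) and Ctsb in 15 of 15 settings, Ctsd in 14 and Ctsl in 13, whereas the Cd9 ratio ran from 0.24 to 2.00 and passed 2-fold in 10 of 15, and the Trem2 ratio ran from -0.69 to 1.46. Where a value below changed, the cause was not tested. Among ratios past 2-fold, 6 changed sign. Smaller ratios did too, and of those of KO over control in macrophage-like cells Cd63 kept its sign in 10 of 15 settings and Gpnmb in 8 of 14, with a lowest value of -2.04. With each cell weighing the same, Gpnmb in KO macrophage-like over fibroblast-like cells was 0.24. With 200 or more genes and up to 20% of UMIs mitochondrial, control Ctsd over fibroblast-like cells was 1.43 in monocyte-like and 0.43 in dendritic cell-like cells, and KO over control in monocyte-like cells was -0.74 for Trem2, -0.67 for Cd63 and -0.020 for Lgals3.

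Counts of members are given as the value under each setting, beside the value above in brackets. Higher in monocyte-like than fibroblast-like cells were 3 in the control (5) and 1 in the KO (3) without the 10 cells with most UMIs, and 6 in the KO with the looser limits. Higher in dendritic cell-like cells were 4 in the control (2) with the looser limits and at a fold of 1.5, and 1 in the KO (2) without the 10 cells and at resolution 0.3. For KO over control in macrophage-like cells, the number higher (1) was 2 with equal weight per cell, 3 after thinning, 0 without the 10 cells, 0 within the Mmp12 group, 2 with 1000 genes and 5%, and 2 at a fold of 1.5. The number lower (0) was 3 without the 10 cells, and 1 without the 1 top cell, with the looser limits and at a fold of 1.5. Leaving out a fixed number of cells takes a larger share of a smaller group. The 10 cells were taken from 95 KO and from 652 control macrophage-like cells, and from 28 and 115 monocyte-like cells. These settings therefore tend to lower KO over control by construction.

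In monocyte-like cells the number higher (6) was 3 after thinning, 1 without the 10 cells, 3 without the 1 top cell, 0 with the looser limits and 1 with 1000 genes and 5%, and the number lower (0) was 1 after thinning, 2 without the 10 cells and 1 with the looser limits. In dendritic cell-like cells the number higher (0) was 3 with each library clustered alone, and the number lower (0) was 3 without the 10 cells, 2 in the Xcr1 cluster and at resolution 0.3, and 1 without the 1 top cell, with the looser limits, with 1000 genes and 5%, and at a fold of 1.5. In fibroblast-like cells the number higher (0) was 1, Gpnmb, with median-of-ratios and TMM factors, in the Inmt cluster, without doublet removal, at resolution 0.3, with members among the clustering genes, with random seed 1 and at a fold of 1.5, and the number lower (0) was 1 in the Timp1 cluster, whose cells are shallow.

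The share of macrophage-like cells with Trem2 and Cd9 in the control (3.31%) was 1.08% thinned to 1000 UMIs, 8.13% unthinned, 0% with 1000 genes and 5%, 1.23% and 0.240% at resolutions 0.3 and 1.0, and 0.749% with each library clustered alone. In the KO (3.8%) it was 16.8% unthinned, and 0% with 1000 genes and 5% and at resolution 1.0. At resolution 0.3, and partly at 1.0 and with the looser limits, the Mmp12 group was not named, so that the macrophage-like class was then mostly the Folr2 group. With the looser limits the monocyte-like class grew from 115 control and 28 KO cells to 277 and 77. Clustering each library alone, keeping doublets and resolution 0.3 gave no value for 4, 3 and 3 comparisons, since a class was not named. The values within clusters, without the 1 top cell, and in monocyte-like cells without C1q were added after seeing the data. Depth limits the monocyte-like values, which rest on 28 KO cells.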

Other observations

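Barcodes left out by the limits on genes and mitochondrial UMIs also held the members. In the 4641 control barcodes left out, Ctsb stood at 419 CPM, Ctsl at 242 CPM, Cd63 at 244 CPM and Trem2 at 11.4 CPM (111 UMIs). In the 1772 KO barcodes left out, Ctsb stood at 203 CPM, Ctsl at 154 CPM, Cd63 at 158 CPM and Trem2 at 9.49 CPM (39 UMIs). Gpnmb stood at 8.32 CPM (81 UMIs) and 19.9 CPM (82 UMIs). Cells in unnamed clusters held 15 Trem2 UMIs among 414 control cells, and 6 among 150 KO cells, all 6 in 1 cell.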
